A study of Mus musculus with 8 samples.

Results

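Myelin is the lipid-rich membrane that oligodendrocytes wrap around axons, and its proteins and the enzymes that build it are made almost wholly by these glial cells. In RNA purified from the ribosomes of neurons, such transcripts are therefore used as a gauge of RNA from another cell type. Here 9 genes of this kind were followed: Mbp, Mobp, Mog and Mag, which encode proteins of compact myelin or of the myelin surface, Cnp, which encodes an enzyme anchored in non-compact myelin, Cldn11, the claudin of the tight junctions between myelin layers, Mal, a proteolipid of the sheath, Ugt8a, which makes the galactolipids of myelin, and Sox10, a transcription factor that oligodendrocytes need for differentiation. They were taken by symbol from the table of read counts, with the transcript row of highest total for each gene, and all 9 were found among its 18939 genes. Each of the 9 had counts in every library, from 44 to 23386.

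The study asked how long-term oral morphine alters the translated RNA of neurons that carry the mu opioid receptor (MOR) in a midline thalamic region, the paraventricular nucleus (PVT), linked to arousal and reward. Mice aged 8 to 12 weeks carried OPRM1cre and EGFP-L10a, so that Cre made from the receptor gene switched on a ribosomal protein tagged with EGFP, and tagged ribosomes were pulled down with antibodies against GFP (translating ribosome affinity purification, TRAP). The morphine group (4 libraries) drank morphine in 0.2% saccharin for 11 days, from 0.3 up to 0.5 mg/ml, and the control group (4 libraries) drank 0.2% saccharin alone. Both groups held 2 libraries labelled male (controls 1 and 2, morphine 3 and 4) and 2 labelled female (controls 5 and 6, morphine 7 and 8), and each library pooled dissections of 2 mice. Cre marks any cell of the dissected block that has used the receptor gene, and the dissection aimed at the PVT was a gross one. How much neighbouring tissue it held was not measured. Total counts were 37081348 to 43311793 in the control libraries and 31151103 to 47582947 in the morphine libraries.

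A single library did not match its label fully. Control 5, labelled female, held counts of 4 Y-linked genes at 28.7% to 35.8% of the mean level of the male libraries, whereas the other female libraries held at most 2 counts of any of them. It also held Xist, the RNA of X inactivation, which was at 45 counts or more in each of the 4 libraries labelled female. Control 5 thus carried RNA of Y-linked genes together with Xist, whose level in the male libraries is not given here. This goes against the pooling as the study's methods describe it, in which mice of different sex were not combined. The origin of this RNA was not tested, and the female means rest on the label. Control 5 was also among the libraries richest in myelin transcripts, so the fitted differences with sex and condition are also given without it. General neuronal transcripts were abundant and even, with a summed level of 8221 to 9422 CPM (counts of a gene scaled to the same normalized library size in every library) for 8 neuronal genes such as Snap25, and Oprm1, the receptor gene itself, was present in every library at 14.0 to 32.3 CPM.

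The amount of myelin RNA differed more between libraries than between the study's groups. The 9 genes together made up 0.0105% to 0.111% of the normalized library size. Their summed level was 105, 327, 971 and 629 CPM in controls 1, 2, 5 and 6, and 399, 658, 638 and 1114 CPM in morphine 3, 4, 7 and 8. Control 1 was thus the poorest library and morphine 8 the richest, 10.6-fold apart, with the second richest library, control 5, in the opposite group. Without control 1 the remaining libraries spanned 3.41-fold. In bulk RNA, a library with fewer oligodendrocytes and a library with less RNA from each of them cannot be told apart.

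**Figure D1:**
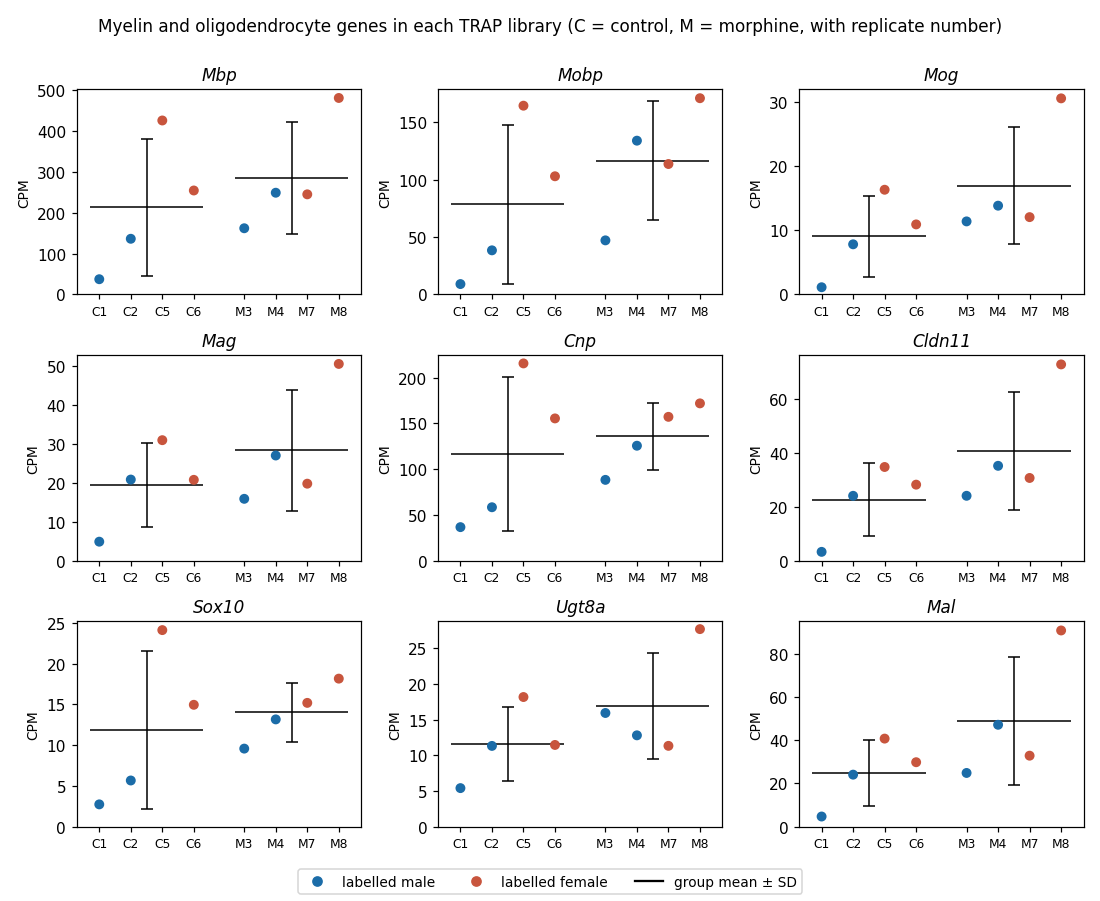
Expression of the 9 genes in each of the 8 TRAP libraries, in CPM on linear axes that start at 0. Points are libraries, coloured by labelled sex, and lines with bars are the mean and SD of the 4 libraries of a group. Control 1 is the lowest point in every panel, and morphine 8 or control 5 is the highest.

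Mbp, whose basic protein fuses the inner faces of the myelin membrane, was the most abundant of the 9. Its level was 37.3, 136, 426 and 254 CPM in controls 1, 2, 5 and 6 and 162, 249, 245 and 481 CPM in morphine 3, 4, 7 and 8. The highest library thus stood 12.9-fold above the lowest, and the 2 groups overlapped over most of their range. Mobp, which encodes another basic protein of compact myelin, was at 9.08, 38.5, 165 and 103 CPM in the controls and 47.2, 134, 114 and 171 CPM with morphine. It spanned 18.8-fold, and control 5 and morphine 8 again lay at the top, close to each other.

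Mog encodes an immunoglobulin-like protein of the outermost myelin layer and appears late in maturation. It had the widest span of the list, at 1.13, 7.83, 16.4 and 10.9 CPM in the controls and 11.4, 13.9, 12.1 and 30.6 CPM with morphine. The span was 27.1-fold, set at the low end by control 1 with 44 counts and at the high end by morphine 8 with 1490. Mag, the adhesion protein that faces the axon, was at 4.87, 20.9, 31.0 and 20.8 CPM in the controls and 15.9, 27.1, 19.8 and 50.6 CPM with morphine, a span of 10.4-fold. Cldn11 was at 3.26, 24.1, 34.8 and 28.3 CPM in the controls and 24.1, 35.3, 30.7 and 73.0 CPM with morphine. Mal was at 4.72, 24.1, 40.7 and 29.8 CPM in the controls and 24.8, 47.1, 32.8 and 90.7 CPM with morphine. In these 4 genes morphine 8 stood above all other libraries, while the other 3 morphine libraries lay within or close to the range of controls 2, 5 and 6.

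Cnp and Sox10 had a somewhat different order. Cnp was at 36.6, 58.3, 216 and 155 CPM in the controls and 88.3, 126, 157 and 172 CPM with morphine. Sox10 was at 2.74, 5.67, 24.1 and 14.96 CPM in the controls and 9.58, 13.2, 15.2 and 18.2 CPM with morphine. For both, control 5 and not morphine 8 was the highest library, and all 4 libraries labelled female lay above all 4 labelled male. Ugt8a was the most even of the 9, at 5.41, 11.3, 18.2 and 11.5 CPM in the controls and 15.9, 12.8, 11.3 and 27.7 CPM with morphine, a span of 5.12-fold.

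Across the list, control 1 was lowest for 9 of 9 genes, morphine 8 was highest for 7 and control 5 for 2. Among 12980 other genes with a mean of at least 1 CPM, control 1 was lowest for 15.3%, morphine 8 was highest for 14.4% and control 5 for 14.8%. The SD of log2 CPM over the 8 libraries ran from 0.68 for Ugt8a to 1.44 for Mobp, with a median of 1.16 over the list against 0.20 over all 12989 genes at this level. All 9 ranked between percentiles 95.9 and 99.5 of these genes for that spread. The biological coefficient of variation around the group means, as edgeR estimated it, was 35.5% to 63.6% for the 9 genes against a median of 19.3% over all genes.

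Levels of different genes were compared per kilobase of transcript (RPKM, averaged over the 8 libraries). In descending order Mbp was at 99.8, Cnp at 53.5, Mobp at 29.7, Cldn11 at 17.0, Mal at 13.3, Mag at 9.81, Mog at 7.65, Sox10 at 4.77 and Ugt8a at 3.81 RPKM. Each gene's range over libraries overlapped that of its neighbour in this order, with Cnp for example at 15.5 to 91.5 and Mobp at 2.76 to 52.1 RPKM, although within a library neighbours were mostly in the same order. Cnp was above Mobp and Cldn11 above Mal in 8 of 8 libraries, the other neighbours down to Mog and Sox10 kept the order in 7 of 8, and Sox10 was above Ugt8a in 4 of 8. The order depends on the transcript row used, since rows of a gene can hold nearly the same counts and differ in length. On its row of 486 bases, in place of that of 2778 bases, Mal was at 72.6 RPKM, above Cldn11 and Mobp in 8 of 8 libraries and above Cnp in 4 of 8, and the downstream-start rows of Mbp gave 118 to 382 RPKM. Within the whole table, mean RPKM placed Mbp at percentile 96.7 and Ugt8a at percentile 50.8.

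The 9 genes rose and fell together from library to library. Over the 36 pairs of genes, Pearson's r of log2 CPM (n = 8 libraries) was 0.74 to 0.99 with a median of 0.93, and in exact permutation tests the largest Benjamini-Hochberg adjusted p over the 36 pairs was 0.034. Spearman's rho was 0.69 to 1 with a median of 0.85, and 33 of the 36 pairs had an adjusted exact permutation p under 0.05, the largest being 0.069. When the 2 libraries farthest from the median of the first gene were left out of each pair, r was 0.24 to 0.98 with a median of 0.76, a step that narrows the range of the first gene and by itself tends to lower r. The closest pair was Cnp and Sox10, with r = 0.993 (exact permutation p = 2.5e-05) and 0.980 without the 2 extreme libraries. The loosest was Cnp and Ugt8a, with r = 0.738 (exact permutation p = 0.034) and 0.248 without them. All these correlations share the same 8 libraries and sequencing depths.

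SOX10 and related factors bind a short core that is commonly written ACAAAG or ACAATG, and several myelin genes are textbook targets of SOX10. Because the 9 genes moved together, the 250 bases upstream of the annotated start were read from RefSeq (GRCm38.p6) for the 7 members outside the Mbp locus that had a window, which left out Sox10 itself. Both strands were searched. ACAAAG was present upstream of 3 of the 7 genes (Mobp, Mag and Cnp) and in 16.5% of 32851 promoter windows of the same length, and ACAATG was present in none of the 7 and in 10.7% of all windows. The E-box forms CAGCTG and CAGATG, bound by helix-loop-helix factors and present in 13.0% and 14.4% of all windows, were found in none of the 7. The Mobp window held 6 copies of the ACAAAG core, all on the opposite strand, and it was the only window of 32851 with 6 or more matches to either core. The 3 windows with a match are shown 5′ to 3′ on the strand of the gene, with the core in capitals (CTTTGT is the same core read from the other strand). They lie at chr9:120149492-120149741 (plus strand, Mobp), chr11:100574689-100574938 (plus strand, Cnp) and chr7:30914864-30915113 (minus strand, Mag).
Mobp: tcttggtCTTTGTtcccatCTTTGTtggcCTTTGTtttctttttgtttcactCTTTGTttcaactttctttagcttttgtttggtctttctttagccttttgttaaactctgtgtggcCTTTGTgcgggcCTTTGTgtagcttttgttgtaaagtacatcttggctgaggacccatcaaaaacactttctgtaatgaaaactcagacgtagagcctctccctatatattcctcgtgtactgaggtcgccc
Cnp: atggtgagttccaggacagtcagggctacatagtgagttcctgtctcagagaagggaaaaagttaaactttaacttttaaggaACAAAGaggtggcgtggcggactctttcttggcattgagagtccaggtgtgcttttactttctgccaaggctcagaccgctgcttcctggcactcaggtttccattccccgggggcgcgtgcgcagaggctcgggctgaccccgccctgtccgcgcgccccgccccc
Mag: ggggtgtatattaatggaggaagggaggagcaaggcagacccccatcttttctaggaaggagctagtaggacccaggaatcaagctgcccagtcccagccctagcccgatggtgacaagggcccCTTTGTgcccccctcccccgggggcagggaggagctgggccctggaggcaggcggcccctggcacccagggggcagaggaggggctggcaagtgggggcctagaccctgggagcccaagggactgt
These matches describe letters and not binding, and no binding data were used here. The 6 copies in Mobp begin at positions -243, -231, -221, -198, -132 and -120 relative to the start, whereas the single copies in Cnp and Mag begin at -167 and -126, and no match overlapped another. Whether the number of copies relates to the spread of a gene between libraries was not tested.

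Morphine was then compared with control. All 9 genes had a fitted log2 fold change above 0, as did 51.4% of all genes, from 0.22 for Cnp to 0.98 for Mal, with a median of 0.55 against 0.0088 over all genes. None of these differences passed the test. By edgeR's quasi-likelihood test, 0 of 9 genes had an adjusted p under 0.05, against 0.195% of all genes (37 of 18939), and 0 of 9 had an unadjusted p under 0.05, against 12.1% of all genes. With sex in the model 0 of 9 were called and 2 of 9 had an unadjusted edgeR p under 0.05 (0.581% and 11.6% of all genes), with a median log2 fold change of 0.67. Mal was then at 1.06 ± 0.42 (SE) and Mog at 1.06 ± 0.45, and the values of Mobp (1.00 ± 0.49), Sox10 (0.58 ± 0.33), Cnp (0.50 ± 0.26) and Mbp (0.67 ± 0.38) were over 1.5 times those without sex. No member had all morphine libraries above all control libraries, which was the case for 3.34% of all genes.

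The spread within groups was wide. Mal was at 24.8 ± 15.1 CPM in controls and 48.9 ± 29.4 CPM with morphine (SD, n = 4 each), with a log2 fold change of 0.98 ± 0.53 (SE, edgeR adjusted p = 0.506). Mog was at 9.06 ± 6.35 and 17.0 ± 9.15 CPM, with a log2 fold change of 0.91 ± 0.57 (edgeR adjusted p = 0.572). Cldn11 was at 22.6 ± 13.6 and 40.8 ± 22.0 CPM, with a log2 fold change of 0.85 ± 0.54 (edgeR adjusted p = 0.576). These 3 had the largest fitted differences of the list, and in each the standard error was more than 0.5 on the log2 scale.

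For the other 6 genes the fitted differences were smaller. Mobp (0.56 ± 0.65), Mag (0.55 ± 0.47) and Ugt8a (0.55 ± 0.34) were in the middle of the list, and Mbp (0.41 ± 0.55), Sox10 (0.24 ± 0.51) and Cnp (0.22 ± 0.45) at its low end (log2 fold change ± SE, edgeR adjusted p between 0.572 and 0.877). In exact permutation tests (two-sided, 70 possible arrangements of the libraries) p was between 0.2 and 0.486 for the 9 genes, where 0.0286 is the smallest p that this design allows.

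The size of the differences depended on a few libraries, while 7 of 9 genes were above 0 in all 8 fits that left out 1 library. Without control 1, the median log2 fold change of the 9 genes was 0.21 and 7 of 9 stayed above 0, with Cnp at -0.094 and Sox10 at -0.10. Without morphine 8 the median was 0.20, with 9 of 9 above 0. Without control 5 it was 0.98, and 3 of 9 genes had an unadjusted edgeR p under 0.05 (11.1% of all genes in that fit). In none of the fits that left out 1 library was a member called at an adjusted p under 0.05. Over all genes, 0 to 77 were called in these fits (at most 0.408%), so few calls were to be had.

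**Figure D2:**
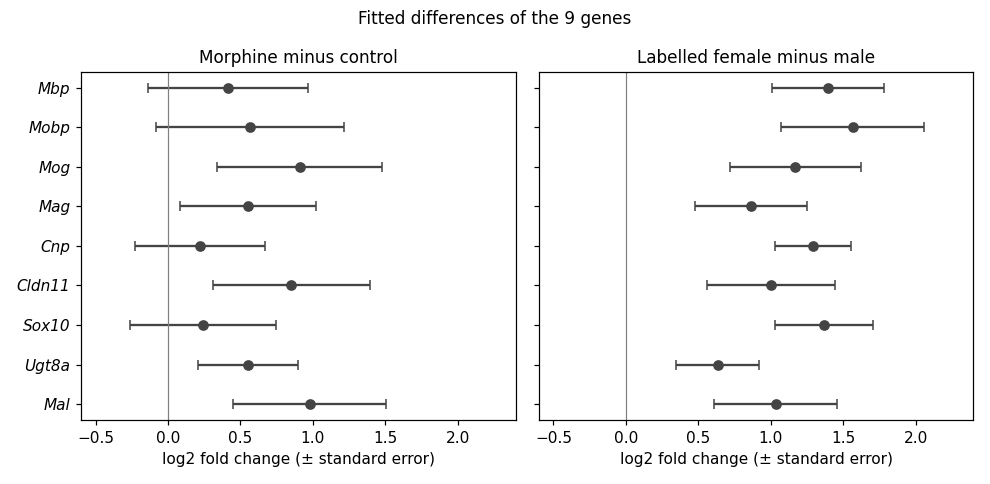
Fitted log2 fold changes of the 9 genes with standard errors, for morphine minus control (left) and for libraries labelled female minus male with condition in the model (right). All 9 points lie above 0 on both sides, from 0.22 to 0.98 on the left and from 0.63 to 1.57 on the right.

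The libraries labelled female held more myelin RNA on average than those labelled male, though not past the adjusted threshold of the main test. The summed levels of the 9 genes overlapped, at 629 to 1114 CPM in female and 105 to 658 CPM in male libraries. With condition in the model, the log2 fold change (female minus male) was 0.63 for Ugt8a to 1.57 for Mobp, with a median of 1.17 over the 9 genes against -0.011 over all genes. By edgeR 0 of 9 had an adjusted p under 0.05 (0.00528% of all genes, a single gene, did). All 9 had an unadjusted p under 0.05 and a higher female level, against 2.00% of all genes. With filterByExpr 5 of 9 and with at least 10 counts in every library 4 of 9 had an unadjusted p under 0.05 (3.40% and 3.34% of the genes tested, either direction). DESeq2 called 2 of the 9, Cnp (adjusted p = 0.00456) and Sox10 (adjusted p = 0.0375), with 0.111% of all genes called by that tool. Without control 5 DESeq2 called 1 of the 9, Cnp (adjusted p = 0.0241, with 14 of all 18850 genes called in that fit), and Sox10 was at an adjusted p of 0.219. These members were chosen with earlier results of these data known, and they move together, so that 9 genes are not 9 independent observations.

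Cnp was at 77.2 ± 38.6 CPM in male and 175 ± 28.0 CPM in female libraries (SD, n = 4 each), with a log2 fold change of 1.29 ± 0.26 (SE, edgeR adjusted p = 0.702). Sox10 was at 7.79 ± 4.55 and 18.1 ± 4.27 CPM, with a log2 fold change of 1.37 ± 0.34 (edgeR adjusted p = 0.702). In these 2 genes all female libraries lay above all male libraries, which was the case for 1.01% of all genes, and the exact permutation p was 0.0286 for each. The sexes overlapped in the other 7 genes. Mbp, for example, was at 146 ± 87.1 CPM in male and 351 ± 120 CPM in female libraries (log2 fold change 1.39 ± 0.39, edgeR adjusted p = 0.849), and male morphine 4 lay just above female morphine 7.

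Removing control 5, whose sex label is in doubt, left 9 of 9 genes higher in female libraries, with a median of 0.96 on the log2 scale and 4 of 9 with an unadjusted edgeR p under 0.05 (2.63% of all genes in that fit, either direction). Without control 1, the poorest library and labelled male, the median was 0.77 and 7 of 9 had an unadjusted p under 0.05 (2.91% of all genes). Without morphine 3 or without morphine 8 it was 4 of 9 (3.07% and 4.75% of all genes). The sources used here give no batch of dissection, purification or sequencing, so sex and the order of handling could not be compared within batches.

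The morphine difference was not the same size in both sexes by description. From the means of 2 libraries each, morphine was above control in male libraries by 0.74 (Mag) to 1.93 (Mobp) on the log2 scale, and in female libraries by -0.23 (Sox10) to 0.81 (Mal). The interaction of sex and condition was below 0 for 9 of 9 genes but called for 0 of 9 by edgeR (0.00% of all genes, with 325 at an unadjusted p under 0.05). At an unadjusted p under 0.05 it was below 0 for 3 of 9 genes, against 0.924% of all genes: Cnp at -1.34 ± 0.35 (SE), Sox10 at -1.66 ± 0.46 and Mobp at -1.84 ± 0.80. The male control cell of this test holds 2 libraries, and the median of the 9 interactions was -0.84 with all libraries, -0.064 without control 1 (4 of 9 above 0, 2 of 9 at an unadjusted p under 0.05, 4.45% of all genes) and -2.28 without control 2 (0 of 9 above 0, 8 of 9 at an unadjusted p under 0.05, 2.07% of all genes). Without control 5 it was -0.53, with 1 of 9 above 0 and 2 of 9 at an unadjusted p under 0.05 (1.64% of all genes). No member was called in any of these fits, in which at most 1 of all genes was called.

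Mbp has a long transcription unit on chromosome 18 (GRCm38, 82475162 to 82585637, plus strand, for the counted row). Its upstream start gives the Golli transcripts, which neurons and immune cells also make, and its downstream start gives the classic myelin basic proteins of oligodendrocytes. Of 8 transcript rows for Mbp, 6 start downstream. The counted row starts upstream, but 1945 of its 2492 bases lie in exons of the downstream-start rows. A row with the upstream start (82475146 to 82558703, 4 exons, 4797 bases) shares 281 bases with the exons of the downstream-start rows, and rows that share exons appear to count the same reads on each. Counts of downstream transcripts in these shared bases can therefore be part of the upstream-start row, and their share was not measured.

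The 2 kinds of row differed in their spread over libraries. The upstream-start row was at 55.2, 60.7, 86.4 and 91.3 CPM in controls 1, 2, 5 and 6 and 52.4, 86.2, 86.5 and 98.5 CPM in morphine 3, 4, 7 and 8, a span of 1.88-fold. The downstream-start row was at 32.1, 131, 423 and 246 CPM in the controls and 158, 242, 239 and 477 CPM with morphine, a span of 14.9-fold. The ratio of downstream to upstream counts was 0.58 in control 1, 4.90 in control 5 and 4.85 in morphine 8, and it lay between 2.17 and 3.02 in the other 5 libraries. In counts, which depend on row length, control 1 was the only library of the 8 in which the upstream-start row exceeded the downstream-start row of 638 bases. Per kilobase this downstream-start row was higher in every library, at 50.4 to 748 RPKM against 10.9 to 20.5 RPKM. The size of this contrast depends on the length used. Downstream-start rows of 1922 to 2070 bases held nearly the same counts and ranged from 15.5 to 248 RPKM over the libraries.

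The upstream-start row did not pass the test for condition. It was at 73.4 ± 18.1 CPM in controls and 80.9 ± 19.9 CPM with morphine (SD, n = 4 each), with a log2 fold change of 0.14 ± 0.21 (SE, edgeR adjusted p = 0.817). It was also higher in all female than in all male libraries, at 90.7 ± 5.70 against 63.6 ± 15.4 CPM (exact permutation p = 0.0286, a separation found in 1.01% of all genes), but was not called by edgeR (log2 fold change 0.52 ± 0.14, adjusted p = 0.848). Without control 5 the condition value was 0.21 ± 0.22 and the sex value 0.50 ± 0.16 (edgeR adjusted p = 0.743 and 1.00). These rows were chosen after the data had been seen.

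**Figure D3:**
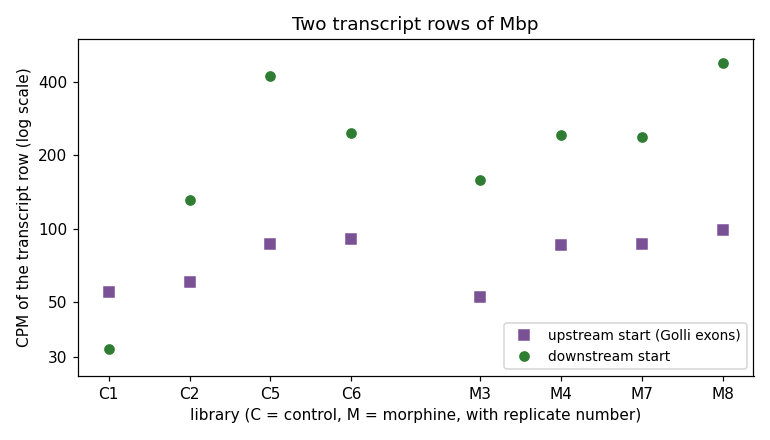
CPM of a row of Mbp with the upstream start (squares) and a row with the downstream start (circles) in each library, on a logarithmic axis. The squares stay between 52.4 and 98.5 CPM while the circles run from 32.1 to 477 CPM, and the rows differ in length, so that heights of squares and circles compare libraries and not transcripts.

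Other genes of the oligodendrocyte lineage, 54 in 4 lists beside the 9, followed the same libraries in part. The correlation with the average of the 9 genes (log2 CPM, 8 libraries) was above 0.8 for 35 of the 54 and ranged from -0.48 (Tppp3) to 0.99. In 42 of the 54 control 1 was the lowest library, in 31 morphine 8 was the highest and in 15 control 5 was. With morphine 44 of 54 had a log2 fold change above 0 (51.4% of all genes did), with a median of 0.38. By edgeR 0 were called (0.195% of all genes were) and 4 had an unadjusted p under 0.05 (12.1% of all genes did). In female libraries 51 of 54 had the higher level, with a median of 0.83. Of these, 37 had an unadjusted edgeR p under 0.05 (2.00% of all genes) and 0 were called (0.00528% of all genes). Without control 5 the condition median was 0.77, with 47 of 54 above 0. In that fit 28 had an unadjusted edgeR p under 0.05 (11.1% of all genes) and 0 were called (0.106% of all genes). The sex median was then 0.65, with 51 of 54 above 0. In that fit 23 had an unadjusted edgeR p under 0.05 (2.63% of all genes, either direction) and 0 were called (0.0265% of all genes). Many of the 54 genes move together, so they are not 54 independent observations.

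Among 8 lineage transcription factors, 6 had a log2 fold change above 0 with morphine. Olig1, a helix-loop-helix factor of the lineage, had the largest (0.67 ± 0.52, edgeR adjusted p = 0.644) and ran from 2.79 CPM in control 1 to 36.3 CPM in morphine 8. Zfp536, a zinc finger gene that neurons also express, had the smallest (-0.15 ± 0.22, edgeR adjusted p = 0.816) and stayed between 17.0 and 39.4 CPM.

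Of 20 genes of the myelin membrane and its junctions, 19 had a log2 fold change above 0. The summed level of these genes was 151, 277, 465 and 317 CPM in the controls and 352, 345, 372 and 589.6 CPM with morphine, so that morphine 3, 4 and 7 were close together and below control 5 while morphine 8 was above it. The largest value was that of Cd9, a tetraspanin (0.98 ± 0.53, edgeR adjusted p = 0.506), and the smallest that of Ninj2 (-0.0019 ± 0.92, edgeR adjusted p = 0.999), which was below 0.5 CPM in all libraries and had 0 counts in morphine 4.

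Of 12 genes of lipid synthesis and metabolism, 11 had a log2 fold change above 0, from Apod, a lipid-binding apolipoprotein (0.95 ± 0.56, edgeR adjusted p = 0.542, 1.95 CPM in control 1 and 43.6 CPM in morphine 8), down to Carns1, carnosine synthase (-0.27 ± 0.13, edgeR adjusted p = 0.461, 8.00 to 12.2 CPM). Of 14 cytoplasmic genes, 8 were above 0, a share near the 51.4% of all genes. Cryab, a small heat shock protein, had the largest value (0.70 ± 0.55, edgeR adjusted p = 0.648) and Tppp3, a tubulin-binding protein, the smallest (-0.61 ± 0.12, edgeR adjusted p = 0.0642). The most abundant genes of that list, Tubb4a at 770 to 1208 CPM and Tppp at 764 to 886 CPM, are also expressed by neurons and were less close to the 9 genes (r = 0.19 and 0.38 over 8 libraries), as were Carns1 (r = -0.30), Fnbp1 (r = 0.094) and the lineage factor Nkx2-2 (r = 0.41).

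Progenitor genes were mixed. Their summed level (13 genes) was 156 to 220.0 CPM, a span of 1.41-fold, and their median r with the average of the 9 genes (log2 CPM) was 0.45, against 0.93, 0.96, 0.89 and 0.77 for the factor, membrane, lipid and cytoplasmic lists. The abundant members of the progenitor list, Lhfpl3, Tnr and Ptprz1, are not restricted to progenitors and carried most of this sum. The 9 genes of the list with a mean below 5 CPM ranged widely, with spans of 1.65-fold (Susd5) to 20.0-fold (Matn4, which had 1 to 25 counts) and r with the 9 myelin genes of 0.17 (C1ql1) to 0.93 (Enpp6) over 8 libraries. With morphine 12 of 13 had a log2 fold change above 0 (51.4% of all genes) and 0 were called (0.195% of all genes). Matn4 had the largest (1.52 ± 0.50, edgeR adjusted p = 0.249, at most 0.514 CPM) and Sox6 the smallest (-0.29 ± 0.24, edgeR adjusted p = 0.666). Genes of Schwann cells, the myelinating glia of peripheral nerve, were uneven in level. Of 4 such genes, Pmp2, which encodes a fatty acid-binding protein of peripheral myelin, was at most 0.0562 CPM and had 0 counts in 5 of 8 libraries, and Prx was at most 0.487 CPM, whereas Pmp22 (2.31 to 7.12 CPM) and Egr2 (0.904 to 12.1 CPM), which other cells also express, were higher.

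**Figure D4:**
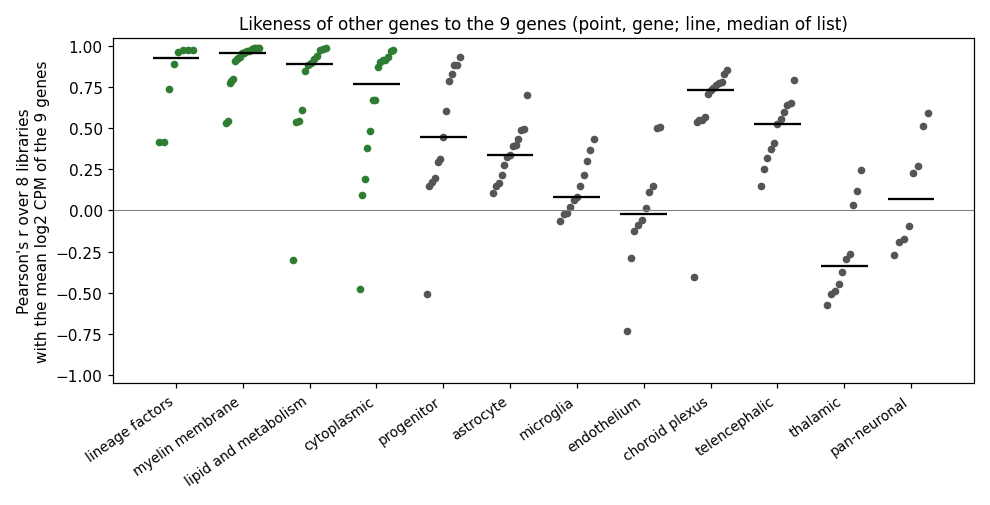
Pearson's r over the 8 libraries between the log2 CPM of each listed gene (point) and the mean log2 CPM of the 9 genes, by list, with the list median as a line. Green marks the 4 lists of mature oligodendrocytes, whose medians lie between 0.77 and 0.96, and the progenitor median is 0.45 and the pan-neuronal median 0.068.

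The 11 genes named here as most like the mean log2 CPM of the 9, among 12980 genes with a mean of at least 1 CPM, had r between 0.982 and 0.994 over the 8 libraries. They were, in descending order, Pdlim2, Galnt6, Evi2a, Cmtm5, Gjb1, Trf, Tmem63a, Tmem125, Pllp, Fa2h and Gjc3, and 7 of the 11 were in the oligodendrocyte lists above. Gjb1 and Gjc3 encode connexins, Trf transferrin and Fa2h the enzyme that hydroxylates myelin fatty acids. Pdlim2, Galnt6, Cmtm5 and Tmem63a were in none of the lists. In all 11 genes control 1 was lowest and morphine 8 highest, as with Pdlim2 (0.718 to 6.91 CPM) and Trf (4.82 to 113 CPM). Over all genes compared, 126 (0.971%) had r above 0.9.

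Marker lists of other cell types shared the low end of the order in part, and the rest of the order differed. The astrocyte list (13 genes) summed to 337, 481, 302 and 490 CPM in the controls and 385, 497, 404 and 470 CPM with morphine, and Slc1a2, which neurons can also carry, gave 234 to 409 CPM of it. Control 5 was the poorest library in this sum, but without Slc1a2 the other 12 genes summed to 56.0 CPM in control 1, the lowest, 67.9 CPM in control 5 and up to 154 CPM in morphine 4. Control 1 was lowest for 8 of the 13 genes. The microglial list (11 genes) summed to 7.13 to 17.3 CPM, with Itgam and Trem2 at 0 counts in at least 1 library, and the endothelial list (10 genes) to 4.88 to 12.8 CPM, with Tie1 at 0 counts in 1. The mural list (8 genes) summed to 4.92 to 13.7 CPM. All 3 were highest in control 2, the second poorest in myelin RNA, while control 1, the poorest in myelin RNA, was lowest in the microglial and mural sums and next to lowest, at 4.97 CPM, in the endothelial one.

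For markers of choroid plexus and of telencephalic neurons the summed levels of the groups did not overlap. The choroid list (13 genes) summed to 34.5, 51.8, 43.3 and 110 CPM in the controls and 157, 298, 130 and 401 CPM with morphine, so that all morphine libraries lay above all controls. By edgeR 0 of these genes were called (0.195% of all genes) and 10 had an unadjusted p under 0.05 (12.1% of all genes). Of this list, 9 genes had all morphine above all control libraries (3.34% of all genes), Kcnj13 was at 0 counts in control 1, and the median r of the list with the 9 genes was 0.73. The telencephalic list (11 genes) summed to 377, 453, 389 and 672 CPM in the controls and 707, 1009, 778 and 960 CPM with morphine, with 1 gene called (Bhlhe22, against 0.195% of all genes), 6 at an unadjusted p under 0.05 (12.1% of all genes) and 3 with all morphine above all control libraries (3.34%), and control 1 was lowest in this sum too. Thalamic genes (10) summed to 2942, 2360, 2899 and 2754 CPM in the controls and 3084, 1825, 2178 and 2314 CPM with morphine. The groups overlapped, with morphine 3 the highest library and morphine 4, 7 and 8 below all controls. With morphine 1 of 10 thalamic genes had a log2 fold change above 0 (51.4% of all genes), with a median of -0.23. Of these genes 0 were called by edgeR (0.195% of all genes). Morphine 8 and control 1 were the richest and poorest libraries in choroid RNA as well as in myelin RNA, but control 5 was poor in choroid and rich in myelin RNA. The part of tissue composition in the results on the 9 genes was not tested.

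**Figure D5:**
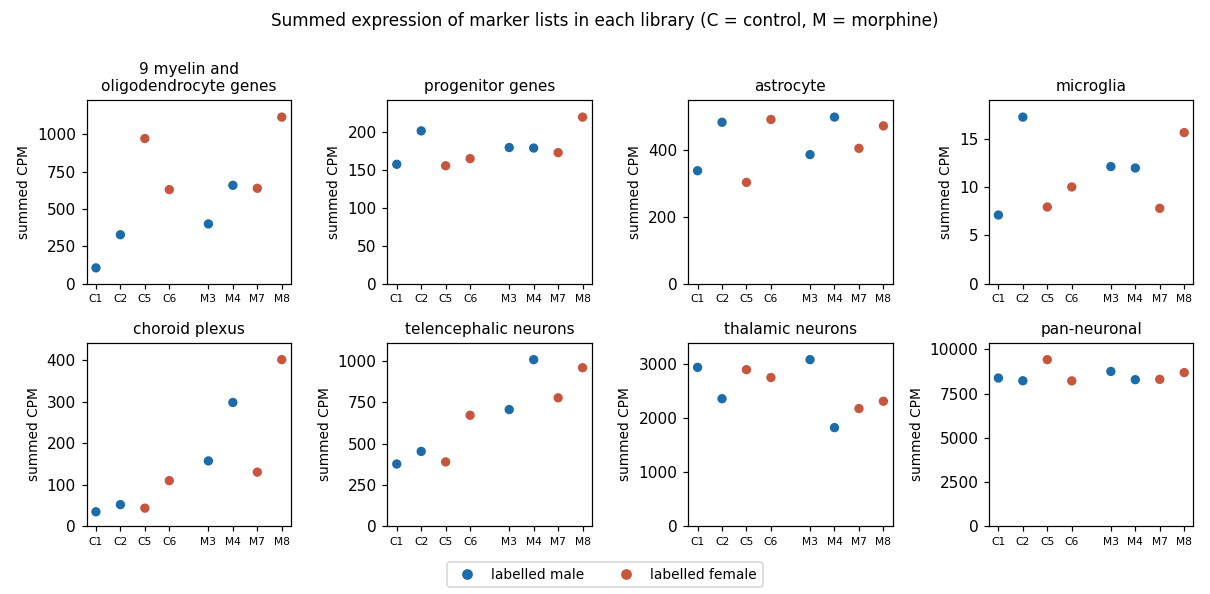
Summed CPM of the 9 genes and of 7 marker lists in each library, coloured by labelled sex, on linear axes that start at 0. The 9 genes run from 105 to 1114 CPM and the pan-neuronal list from 8221 to 9422 CPM, and the choroid and telencephalic lists are the 2 of these 8 in which all morphine points lie above all control points.

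Oprm1 itself ran the other way by description. It was at 32.3, 29.4, 16.8 and 22.7 CPM in controls 1, 2, 5 and 6 and 15.9, 14.0, 17.6 and 18.4 CPM in morphine 3, 4, 7 and 8. Controls 1 and 2, the libraries with the least myelin RNA, were the 2 with the most Oprm1, and r between Oprm1 and the mean of the 9 genes was -0.73 over 8 libraries. The log2 fold change of Oprm1 with morphine was -0.62 (edgeR adjusted p = 0.207), and -0.79 without control 5 (edgeR adjusted p = 0.0737).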

How the data were processed

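The authors deposited raw counts, whole numbers without normalization, for 24488 RefSeq transcripts in each library. The study's methods describe quantification with Salmon on an mm10 index for its own gene-level analysis, but the sources used here do not say that the deposited counts came from it, or whether strand was used, and the library kit was a directional one. The submitters' processing notes list mm10 and DESeq2. Rows of the same gene can hold the same reads (the 6 downstream-start Mbp rows total 77824 to 78078 counts each), so 1 row per gene, that with the highest total, was kept (20 rows for the 9 genes, 4 of which had more than 1 row). No exon of the 9 genes overlapped another gene in the GENCODE M21 annotation (GRCm38), which also gave lengths and coordinates.

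Counts were normalized with TMM factors in edgeR 4.0.16 (R 4.3.3) and tested over all 18939 genes with a count above 0 by its quasi-likelihood test, with condition alone, with sex and condition, or with their interaction, and adjusted by Benjamini-Hochberg (threshold 0.05). CPM and RPKM were computed from the deposited counts and the normalized library sizes, and log2 CPM used a prior count of 2. Standard errors were derived from F. Exact permutation tests were two-sided, on log2(CPM + 0.5). Alternatives were DESeq2 1.42.0, limma-voom (limma 3.58.1), other normalization factors, 2 filters on low counts (edgeR's filterByExpr, and at least 10 counts in every library), the sum over transcripts, sex in the model and each library left out in turn. For genes beside the 9, and for DESeq2, the fits without control 5 were added after seeing the data. Fits were tested on simulated data.

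The members and lists were chosen with earlier results of these data known. Beside the 9 genes, the text names the genes with the largest and smallest log2 fold change of each oligodendrocyte-lineage list, 11 genes most alike, and in other lists the abundant genes and those at 0 counts. Tubb4a, Tppp, Fnbp1, Nkx2-2, Lhfpl3, Tnr, Ptprz1, Susd5, C1ql1, Enpp6 and Bhlhe22 were named after their values had been seen. Each library pooled its own mice, and groups, sexes and replicate numbers came from the labels. Some genes of the lists are not reported here and were left out of their counts and sums. PCR copies are not marked, so reads are not independent molecules.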

Additional observations from a re-analysis of the deposited data

Results flagged for a closer look

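In 104 sets of 4 libraries (a gene or summed list in a group), 8 had a library whose distance from the nearest of the others, relative to the whole range, exceeded Dixon's critical value for 4 samples. For normally distributed values not chosen by their pattern, chance alone would give about 1 such set in 20. Some of these genes were chosen by their values in these data, so that rate does not apply to the 104 sets. Morphine 8 stood apart from the other 3 morphine libraries in 4 of them. Mog was at 30.6 CPM there against 11.4 to 13.9 CPM, Tmem125 at 7.01 against 3.49 to 3.86 CPM, the summed list of the myelin membrane at 589.6 against 345 to 372 CPM and the summed progenitor list at 220.0 against 173 to 180 CPM. These values share their genes in part and are not independent.

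Among the controls, control 5 was at 9422 CPM for the summed pan-neuronal list against 8221 to 8382 CPM, and at 0.0239 CPM for Pmp2, which had 0 counts in the other 3 controls. Control 2 was at 12.8 CPM for the summed endothelial list against 4.88 to 5.76 CPM. Ninj2 was at 0 CPM in morphine 4 against 0.227 to 0.267 CPM in the other morphine libraries, and both Ninj2 and Pmp2 rest on very few counts.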

How the results depend on the processing

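No member was called for condition or for the interaction under any alternative run, and for sex only DESeq2 called members (2 against 0 by edgeR, and 1 without control 5). Over all genes, the number called for condition was 37 by the main test, 502 by DESeq2, 23 by limma-voom, 14 with filterByExpr, 15 with at least 10 counts in every library, 22 with the sum over transcripts and 110 with sex in the model, and 0 to 77 when 1 library was left out. The 0 came without morphine 4 (1696 genes at an unadjusted edgeR p under 0.05) and without morphine 8 (1664). For sex the count was 1 by the main test, 21 by DESeq2, 0 with filterByExpr (495 unadjusted), 0 with at least 10 counts (458 unadjusted) and 0 to 5 when 1 library was left out. For the interaction it was 0 by the main test, 4 by DESeq2 and 0 to 5 when 1 library was left out. The causes were not tested.

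Leaving out 1 library changed the sign of some differences that were not called. For condition, Cnp ran from -0.094 to 0.69 and Sox10 from -0.10 to 0.84 on the log2 scale. For the interaction, Cldn11 ran from -2.47 to 0.40, Mag from -1.69 to 0.38, Mal from -2.12 to 0.21 and Ugt8a from -1.17 to 0.10. limma-voom gave larger values for some uncalled differences, with a median interaction of -1.34 against -0.84 by edgeR and condition values of 0.67 for Sox10, 0.52 for Cnp, 1.09 for Mobp and 0.78 for Mbp. The sign of the sex difference was the same for 9 of 9 genes in all fits run. No paired analysis was possible because control and morphine libraries share no replicate number in the labels. The largest log2 difference for condition among the 9 genes, 0.98 in Mal, was not called and had at least 184 counts behind it in every library.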
